A study of Mus musculus with 24 samples.

Results

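The insulin-like growth factor (IGF) system was followed through 10 genes chosen by name from the 24825 genes listed in each library. They are the ligands Igf1 and Igf2, the receptors Igf1r and Igf2r, and the binding proteins Igfbp2, Igfbp3, Igfbp4, Igfbp5, Igfbp6 and Igfbp7. The values are FPKM, fragment counts scaled to gene length in kilobases and to a library total of 1000000, so levels of different genes are compared per length. All 10 were among the 12640 genes tested, those with at least 1 FPKM in at least 3 libraries. Igfbp5 met that limit through 2 of the 8 groups alone, with 5 libraries at 1 FPKM or more, so its passing the filter and its differing between groups are not separate facts.

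RNA was taken from cells of the inguinal stromal vascular fraction (ingSVF) of mice whose Nfia gene is floxed at exon 2, and the cells were immortalised with SV40 large T antigen. Cells called ctrl had received an empty retroviral vector and Cre cells a retrovirus that expresses Cre recombinase. Cre + NFIA cells in addition expressed full-length NFIA with a FLAG tag, and Cre + NFIA Δpro#3 cells a tagged NFIA from which a proline-rich segment near the C-terminus had been removed. The 3 last types thus all carry Cre, and the floxed alleles and large T antigen are shared by all 4. Each type was sampled at day 0, before differentiation, and at day 7 of a thermogenic adipocyte protocol, with 3 libraries per group and 24 in all. The medium of that protocol contained insulin, T3 and rosiglitazone, and at first also isobutylmethylxanthine, indomethacin and dexamethasone. Whether a cell type is a single infected culture, and whether its libraries came from separate cultures, is not given in the sources used here, so p-values measure the spread between these libraries.

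IGF1 and IGF2 are secreted peptides related to insulin. Both act through IGF1R, a receptor tyrosine kinase, while IGF2R, also known as the cation-independent mannose 6-phosphate receptor, takes up IGF2 for degradation. The IGF binding proteins hold the ligands outside the cell, where they can withhold them from the receptor or extend their life, and proteases that cut the binding proteins release the ligands. IGFBP7 binds IGFs weakly and is often set apart from the others. In fat tissue, precursor cells respond to IGF1 and insulin as they differentiate, and Igf2 and Igf2r are textbook imprinted genes.

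Library totals were 7.73 to 14.62 M reads (M, 1000000). Nfia, the targeted gene, was at 6.23 to 6.75 in ctrl and 5.34 to 6.81 FPKM in the Cre-labelled libraries at day 0, and at 9.15 to 9.81 and 9.49 to 10.7 FPKM at day 7. This value covers the whole gene and does not check the loss of exon 2, so in these files every direction for Cre rests on the label. The study also examined recombination and NFIA loss in Cre-expressing cells by genomic PCR and at the mRNA and protein level, which was not analysed here. With a transgene it was at 59.7 to 74.9 FPKM at day 0 and 83.9 to 111 FPKM at day 7. The 10 adipocyte markers summed to 76.3 to 122 FPKM at day 0. At day 7 they summed to 22007 to 25607 in ctrl, 4424 to 9493 in the Cre-labelled libraries, 20783 to 20985 in Cre + NFIA and 849 to 2140 in Cre + NFIA Δpro#3, and Adipoq, Fabp4 and Pparg, which mark fat cells, had the same order of cell types except that mean Pparg was higher in Cre + NFIA (60.0 FPKM) than in ctrl (52.0 FPKM). The 10 adipocyte precursor markers summed to 3069 to 3511 FPKM at day 0, and at day 7 to 993 to 1083 in ctrl, 2009 to 2310 in the Cre-labelled libraries, 894 to 992 in Cre + NFIA and 2226 to 2571 in Cre + NFIA Δpro#3. Marker lists of other cell types summed to 0.692 to 4.02 FPKM (endothelium, 6 genes), 5.93 to 22.1 (macrophages, 7), 1.22 to 8.78 (mesothelium, 5) and 0.539 to 6.43 (skeletal muscle, 6). In these lists Cdh5, Tie1 and Emcn, then Adgre1, Ptprc and Mrc1, then Msln and Upk3b, then Myod1, Myog, Myf5 and Ckm had at most 3 reads in any library. Those genes are named because of that count, and 1, 4, 1 and 1 genes of the same lists reached the limit for testing. The 6 mural markers summed to 76.2 to 298 FPKM.

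At day 0 both forms of NFIA went with lower Igf2, Igfbp2, Igfbp3 and Igf1r and higher Igfbp6 than in the Cre-labelled libraries. At day 7 full-length NFIA went with lower levels of 7 of the 10 genes, receptors included, and higher Igfbp4 and Igfbp5, whereas with the Δpro#3 mutant Igf2 and Igf1 were lower than in the Cre-labelled libraries and Igf2r, Igfbp3, Igfbp5 and Igfbp6 were higher. In the Cre-labelled libraries against ctrl at day 0, 1 of the 10 genes was higher by limma at an adjusted p under 0.05, where 1.63% of all genes tested were, and 0 were lower, where 1.70% were. At day 7, 7 were higher (36.1% of all genes) and 1 lower (22.7%). In Cre + NFIA against Cre, 1 was higher (14.7%) and 5 were lower (12.9%) at day 0, and 2 were higher (27.0%) and 7 lower (35.9%) at day 7. In Cre + NFIA Δpro#3 against Cre, 1 was higher (9.26%) and 7 were lower (9.02%) at day 0, and 4 were higher (7.70%) and 2 lower (10.0%) at day 7. The median log2 difference of the 10 genes in Cre + NFIA against Cre was -0.26 at day 0 and -1.18 at day 7, beside 0.02 and -0.06 over all genes, and with the mutant against Cre it was -0.37 and 0.21, beside 0.01 and 0.02. These comparisons use the same Cre-labelled libraries, so they are not separate measurements of that level. The day 7 counts of higher genes with a transgene include Igfbp5, which passed the low-value filter through those day 7 groups alone. With a limit of at least 3-fold on the log2(FPKM + 1) scale added, Igf2 and Igfbp3 remained called in Cre + NFIA against Cre at day 0 (0.538% of all genes) and Igf2, Igfbp2 and Igfbp5 at day 7 (3.63%). In the mutant against Cre, Igf2 passed that limit at day 0 (0.142%) and 0 of the 10 at day 7 (0.625%), and in the Cre-labelled libraries against ctrl 0 of the 10 passed it on either day (0.0237% and 1.51%).

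**Figure D1:**
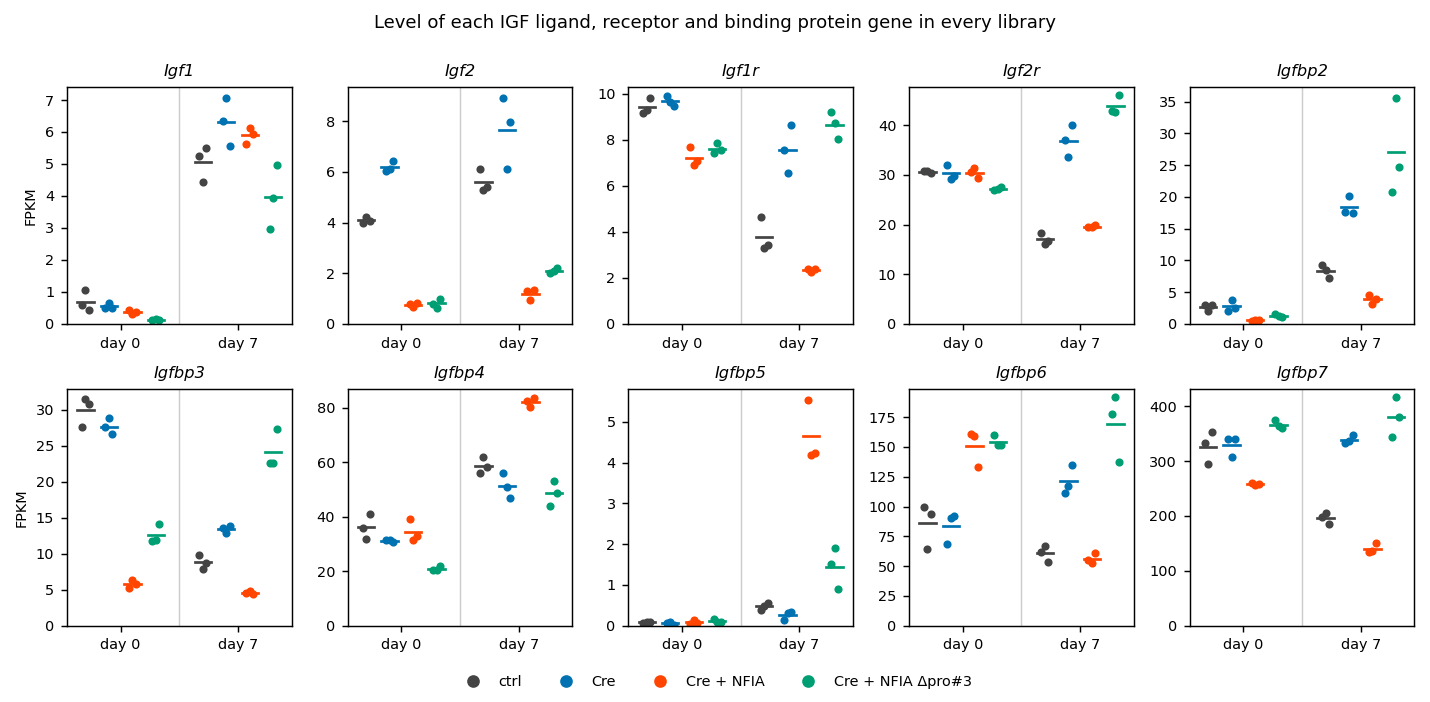
FPKM of each of the 10 genes (a panel each, linear axis from 0) in every library, by day and cell type; points are the 3 libraries of a group and the line is their mean. Igf2 sits below 1 FPKM in all 6 day 0 libraries with an NFIA transgene, and Igfbp5 exceeds 4 FPKM in the 3 day 7 Cre + NFIA libraries alone.

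Igf2 (chromosome 7, 149836673 to 149852721 of mm9, minus strand), the fetal-type growth ligand, was lower with both forms of NFIA on both days. At day 0 it was at 4.0, 4.24 and 4.05 in ctrl and at 6.02, 6.11 and 6.44 FPKM in the Cre-labelled libraries. It was at 0.787, 0.655 and 0.845 FPKM in Cre + NFIA and at 0.797, 0.647 and 0.986 FPKM in Cre + NFIA Δpro#3. The 6 libraries with a transgene lay below all 6 without one, and the ranges of the full-length and mutant libraries overlapped. The means were 8.12-fold lower with full-length NFIA than in the Cre-labelled libraries (log2 difference -2.03, SE 0.08, limma adjusted p = 6.95e-08) and 7.64-fold lower with the mutant (-1.99, SE 0.08, limma adjusted p = 3.14e-07). Mutant and full-length differed by 0.04 (95% interval -0.14 to 0.21, limma adjusted p = 0.863), which did not pass the test and leaves room for a difference of that width. These log2 differences are of FPKM + 1, which makes changes of low genes smaller than the ratio of means.

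Igf2 was also low at day 7 with full-length NFIA, at 1.32, 0.939 and 1.33 FPKM, while ctrl was at 6.13, 5.28 and 5.41 FPKM and the Cre-labelled libraries were at 8.93, 6.10 and 7.96 FPKM. With the mutant Igf2 was at 2.01, 2.10 and 2.19 FPKM, above every full-length library and below every library without a transgene. The difference from Cre was -1.97 (SE 0.12, limma adjusted p = 8.68e-08) for full-length NFIA and -1.47 (SE 0.12, limma adjusted p = 0.000103) for the mutant, and the mutant exceeded full-length by 0.50 (SE 0.12, limma adjusted p = 0.0027). Igf2 was also the gene of the 10 that passed the test for Cre against ctrl at day 0, 1.51-fold higher in the Cre-labelled libraries (log2 difference 0.50, limma adjusted p = 0.0106). That call was lost when only the 6 libraries compared were fitted (limma adjusted p = 0.0839) and with a pseudocount of 0.1 (0.0563). At day 7 the 2 ranges overlapped, and the call for Cre against ctrl (0.38, limma adjusted p = 0.0175) was lost with median-of-ratios size factors (0.0779), with quantile normalization (0.0754), and without ctrl replicate 2 (0.0576), ctrl replicate 3 (0.0526), Cre replicate 1 (0.0821) or Cre replicate 3 (0.0575). Over the 8 groups the level of Igf2 ran from Cre at day 7, through Cre at day 0 and ctrl at day 7, with overlapping neighbours, to ctrl at day 0, mutant at day 7, and ended with full-length at day 7, mutant at day 0 and full-length at day 0, each overlapping the next.

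Igf1 (chromosome 10, 87321010 to 87399792, plus strand), the ligand that growth hormone controls in liver and fat, instead rose from day 0 to day 7 in every cell type. It was at 0.577, 1.05 and 0.450 in ctrl at day 0 and at 5.25, 4.43 and 5.51 FPKM at day 7, and it went from 0.547 to 6.32 FPKM on average in the Cre-labelled libraries. In Cre + NFIA it rose from 0.437, 0.325 and 0.366 to 5.61, 6.13 and 5.93 FPKM. The log2 rise was 1.85 in ctrl, 2.24 in the Cre-labelled libraries, 2.32 in Cre + NFIA and 2.11 in Cre + NFIA Δpro#3 (SE 0.13 each, limma adjusted p = 6.71e-11 or less). Igf1 reached 1 FPKM in 13 libraries, those of day 7 and ctrl replicate 2 of day 0. It thus passed the low-value filter through the day on which it is high, and its rise is a description. At day 7 full-length NFIA and Cre overlapped (difference -0.08, 95% interval -0.37 to 0.21, limma adjusted p = 0.618). The mutant lay below both, at 2.98, 3.95 and 4.98 FPKM against 6.34, 7.05 and 5.56 FPKM in the Cre-labelled libraries (-0.57, SE 0.13, limma adjusted p = 0.0123; 0.0700 when only these 6 libraries were fitted, and 0.0563 without Cre replicate 2). At day 0 Igf1 was lowest with the mutant, at 0.138, 0.140 and 0.135 FPKM, which were 14 reads in each library (-0.44 against Cre, limma adjusted p = 0.0216), and that call was lost without Cre replicate 2 (0.0737) or without any 1 of the mutant libraries (0.0600 to 0.0634).

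Which ligand transcript was the more abundant changed between groups. The ratio of Igf2 to Igf1 FPKM was 9.17 to 13.1 in the Cre-labelled libraries at day 0, 4.02 to 9.0 in ctrl, 4.63 to 7.33 with the mutant and 1.80 to 2.31 with full-length NFIA. At day 7 it was 0.982 to 1.19 in ctrl and 0.866 to 1.43 in the Cre-labelled libraries, near parity, whereas it was 0.440 to 0.674 with the mutant and 0.153 to 0.234 with full-length NFIA. The ranges of these last 2 groups overlapped neither each other nor those of ctrl and Cre.

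**Figure D2:**
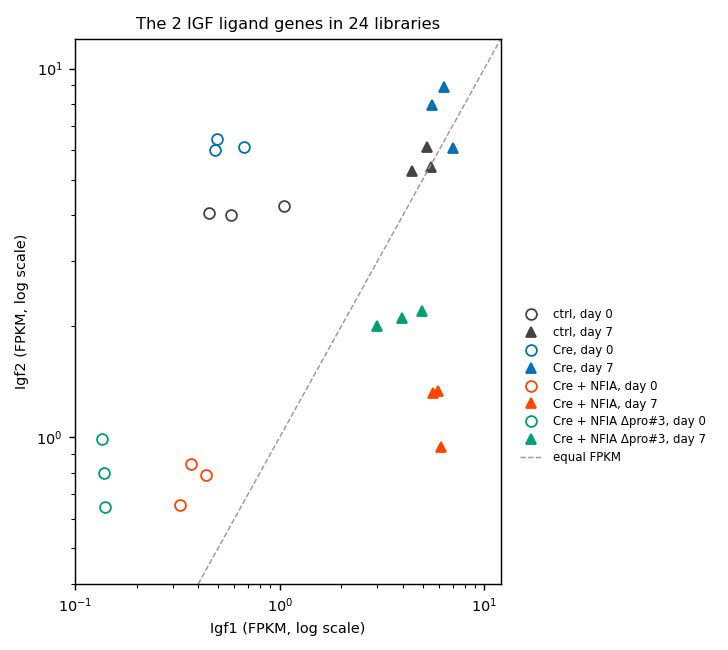
Igf1 against Igf2 in the 24 libraries (FPKM, both axes logarithmic); open circles are day 0, filled triangles day 7, colours the cell types, and the dashed line marks equal FPKM. All day 0 libraries lie above the line and all 6 day 7 libraries with an NFIA transgene lie below it.

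Both receptors were lower with full-length NFIA than in the Cre-labelled libraries at day 7, and at day 0 Igf1r alone was, by a smaller amount. Igf1r (chromosome 7, 75097713 to 75371484, plus strand) was at 9.17, 9.29 and 9.79 in ctrl at day 0 and at 9.89, 9.63 and 9.46 FPKM in the Cre-labelled libraries, which overlapped. It was at 7.70, 6.89 and 7.07 FPKM in Cre + NFIA and at 7.44, 7.84 and 7.55 FPKM in Cre + NFIA Δpro#3, below every library without a transgene (log2 difference from Cre -0.38 and -0.31, SE 0.06, limma adjusted p = 0.000642 and 0.00405). By day 7 Igf1r had fallen in ctrl, to 4.66, 3.28 and 3.44 FPKM, and further in Cre + NFIA, to 2.39, 2.24 and 2.36 FPKM. It was at 7.54, 6.54 and 8.62 FPKM in the Cre-labelled libraries, a smaller fall (-0.32, limma adjusted p = 0.00541), and at 9.19, 8.72 and 8.03 FPKM in Cre + NFIA Δpro#3. Full-length NFIA against Cre was 3.25-fold lower (-1.36, SE 0.11, limma adjusted p = 9.15e-07), Cre against ctrl was 1.99-fold higher (0.84, SE 0.11, limma adjusted p = 5.94e-05), and the mutant overlapped Cre (0.18, 95% interval -0.07 to 0.43, limma adjusted p = 0.330).

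Igf2r (chromosome 17, 12875272 to 12962530, minus strand), the scavenger of IGF2, was at 29.2 to 32.0 FPKM over ctrl, Cre and Cre + NFIA at day 0, which overlapped. With the mutant it was at 26.9, 27.2 and 27.6 FPKM (-0.15 against Cre, limma adjusted p = 0.0360). That call was lost with all 24 libraries fitted (limma adjusted p = 0.0740), with only the 6 compared (0.0717) and with a mean of at least 5 FPKM (0.0560). It was also lost when any of those 6 libraries but Cre replicate 2 was left out (0.0533 to 0.111). At day 7 Igf2r separated into a low pair, ctrl at 18.4, 16.1 and 16.6 FPKM and Cre + NFIA at 19.5, 19.4 and 19.8 FPKM, and a high pair, the Cre-labelled libraries at 37.0, 33.7 and 40.1 FPKM and the mutant at 42.9, 42.7 and 46.2 FPKM. Cre exceeded ctrl 2.17-fold (1.07, SE 0.07, limma adjusted p = 4.98e-07), and full-length NFIA was 1.88-fold below Cre (-0.88, SE 0.07, limma adjusted p = 4.9e-07). The mutant was 1.19-fold above Cre (0.25, SE 0.07, limma adjusted p = 0.0279; 0.0832 when only these 6 libraries were fitted, and 0.0743, 0.113, 0.0618 and 0.0863 without Cre replicate 1, Cre replicate 2, mutant replicate 1 and mutant replicate 3). Between days Igf2r fell in ctrl (-0.81) and Cre + NFIA (-0.61) and rose in the Cre-labelled libraries (0.27) and Cre + NFIA Δpro#3 (0.67), each past the limma test. The ratio of Igf2r to Igf1r FPKM was 3.03 to 4.57 over the day 0 libraries and 8.17 to 8.67 in Cre + NFIA at day 7, above the 3.95 to 5.74 of the other day 7 libraries. The antisense gene Airn overlaps Igf2r by 28354 bases, was at 1.54 to 5.80 FPKM, and was counted apart from it, since the counts used the matched strand.

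**Figure D3:**
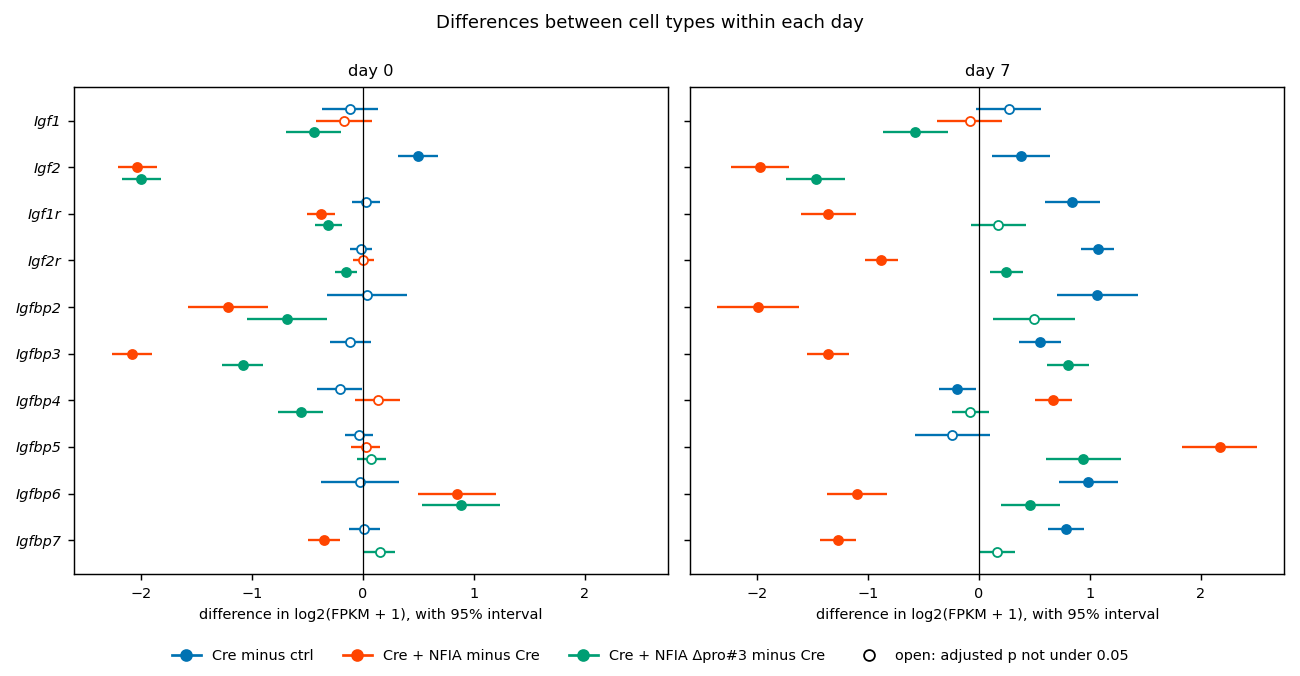
Difference in log2(FPKM + 1) for each gene at day 0 (left) and day 7 (right), with the 95% interval of the limma model; colours are the 3 comparisons and open points did not pass an adjusted p of 0.05. Igf2 is negative for both transgenes on both days, and at day 7 Igf1r, Igf2r, Igfbp2, Igfbp3, Igfbp6 and Igfbp7 are positive for Cre minus ctrl and negative for Cre + NFIA minus Cre.

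Among the binding proteins Igfbp3 and Igfbp2 were lower with both transgenes at day 0, and the mutant parted from full-length NFIA at day 7. Igfbp3 (chromosome 11, 7106089 to 7113926, minus strand), the main carrier of IGFs in blood, was at 27.6, 31.5 and 30.8 in ctrl and 27.5, 28.8 and 26.6 FPKM in the Cre-labelled libraries at day 0. Cre + NFIA had 5.23, 6.30 and 5.85 FPKM and Cre + NFIA Δpro#3 had 11.8, 11.9 and 14.1 FPKM, 3 levels with no overlap between them. Full-length NFIA was 4.77-fold below Cre (-2.08, SE 0.08, limma adjusted p = 6.95e-08), the mutant 2.20-fold below Cre (-1.08, SE 0.08, limma adjusted p = 2.32e-05), and the mutant 2.17-fold above full-length (1.00, SE 0.08, limma adjusted p = 2.52e-05). At day 7 Igfbp3 was at 9.88, 7.89 and 8.71 in ctrl and 13.5, 12.8 and 13.8 FPKM in the Cre-labelled libraries. With full-length NFIA it was at 4.58, 4.80 and 4.43 FPKM, while the mutant had the highest values, 22.6, 22.6 and 27.4 FPKM. The mutant was then above Cre (0.80, SE 0.09, limma adjusted p = 0.000357), the opposite direction to day 0, and the difference between the days was itself past the test (1.89, SE 0.12, limma adjusted p = 1.97e-08).

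Igfbp2 (chromosome 1, 72871077 to 72899048, plus strand), which falls in obesity and is made by differentiating white preadipocytes, was low before differentiation. At day 0 it was at 2.95, 2.04 and 2.92 in ctrl and 2.02, 3.84 and 2.48 FPKM in the Cre-labelled libraries. Cre + NFIA had 0.530, 0.599 and 0.659 FPKM, from 8, 8 and 10 reads, and the mutant 1.53, 1.32 and 1.11 FPKM, below every library without a transgene (-1.21 and -0.68 against Cre, SE 0.16, limma adjusted p = 0.000303 and 0.0163; the second was lost at 0.0635 without mutant replicate 3 and at 0.0599 when only the 6 libraries compared were fitted). It rose in all 4 cell types by day 7, to 9.21, 8.42 and 7.16 in ctrl, 17.7, 20.1 and 17.4 in the Cre-labelled libraries, 4.58, 3.18 and 3.96 in Cre + NFIA and 20.7, 35.5 and 24.8 in the mutant. The 4 day 7 groups did not overlap. The rise was 20.5-fold with the mutant, 6.62-fold in the Cre-labelled libraries, 6.55-fold in Cre + NFIA and 3.14-fold in ctrl, as ratios of mean FPKM. Cre exceeded ctrl (1.07, SE 0.17, limma adjusted p = 0.000183) and full-length NFIA was below Cre (-1.99, SE 0.17, limma adjusted p = 9.51e-07), whereas the mutant's 1.47-fold excess over Cre did not pass (0.50, 95% interval 0.13 to 0.87, limma adjusted p = 0.0619). That excess passed without mutant replicate 1 (limma adjusted p = 0.0250) and with limma voom on the recovered reads (0.0252). It also passed with a pseudocount of 5 (0.0447), a mean of at least 5 FPKM (0.0454) and all 24 libraries fitted (0.0469).

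Igfbp6 (chromosome 15, 101974793 to 101979942, plus strand), which prefers IGF2 over IGF1, changed direction between the days. At day 0 it was at 99.2, 64.4 and 94.1 in ctrl and 68.7, 90.6 and 92.1 FPKM in the Cre-labelled libraries. It was higher with both transgenes, at 161, 159 and 133 FPKM with full-length NFIA and 160, 152 and 152 FPKM with the mutant (0.85 and 0.89 against Cre, SE 0.16, limma adjusted p = 0.00247 and 0.0035), and the mutant and full-length ranges overlapped (0.04, 95% interval -0.31 to 0.39). By day 7 the Cre + NFIA libraries were at 55.0, 52.4 and 61.1 FPKM, overlapping ctrl at 62.2, 66.8 and 53.5 FPKM, and below the Cre-labelled libraries at 112, 117 and 135 FPKM (-1.10, SE 0.12, limma adjusted p = 9.01e-06). With the mutant it was at 177, 192 and 138 FPKM (0.46 above Cre, limma adjusted p = 0.0219; 0.0730 when only these 6 libraries were fitted, and 0.0886, 0.0742, 0.0841 and 0.0781 without Cre replicate 1, Cre replicate 2, mutant replicate 1 and mutant replicate 2). The change in the full-length difference between days was -1.95 (SE 0.21, limma adjusted p = 1.82e-07), the most negative of the 10 genes.

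Igfbp4 (chromosome 11, 98902558 to 98913969, plus strand), generally an inhibitor of IGF action that the protease PAPP-A cleaves, and Igfbp5 (chromosome 1, 72904506 to 72921458, minus strand), which binds extracellular matrix, were the 2 binding protein genes highest with full-length NFIA after differentiation. Igfbp4 was at 82.4, 80.2 and 83.8 FPKM in Cre + NFIA at day 7, against 56.0, 62.0 and 58.1 in ctrl, 56.2, 50.8 and 47.0 in the Cre-labelled libraries and 44.1, 53.2 and 48.9 in the mutant, and these last 2 groups overlapped. Full-length NFIA was 1.60-fold above Cre (0.67, SE 0.08, limma adjusted p = 1.07e-05). The small deficit of Cre against ctrl, whose ranges overlapped, was -0.19 (limma adjusted p = 0.0479), and that call was lost under 5 alternatives (0.0594 to 0.164) and without ctrl replicate 2 (0.152), ctrl replicate 3 (0.0856), Cre replicate 2 (0.0943) or Cre replicate 3 (0.185). At day 0 Igfbp4 was lowest with the mutant, at 20.3, 20.4 and 21.9 FPKM, below the 30.9 to 41.0 FPKM of all other day 0 libraries (-0.56 against Cre, SE 0.09, limma adjusted p = 0.00214).

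Igfbp5 was close to undetected at day 0, with 1 to 12 reads per library. By day 7 it was at 0.390, 0.472 and 0.557 in ctrl and 0.128, 0.299 and 0.325 FPKM in the Cre-labelled libraries, the latter from 9, 16 and 21 reads. Cre + NFIA reached 5.53, 4.19 and 4.24 FPKM, from 435, 306 and 363 reads, and the mutant 1.51, 1.91 and 0.889 FPKM, and none of the 4 groups overlapped. Against Cre the difference was 2.17 with full-length NFIA (SE 0.15, limma adjusted p = 2.5e-07, 18.6-fold in mean FPKM) and 0.94 with the mutant (SE 0.15, limma adjusted p = 0.00172, 5.72-fold), and mutant against full-length was -1.23 (limma adjusted p = 1.76e-05). Igfbp5 passed the low-value filter through these 2 groups with a transgene alone. Its differences from Cre therefore describe the libraries, and their p-values are no separate support. Igfbp5 lies 5.457 kb from Igfbp2, on the opposite strand, and the pair did not move alike at day 7, where full-length NFIA had the highest Igfbp5 and the lowest Igfbp2 of the 4 cell types.

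Igfbp7 (chromosome 5, 77778265 to 77837070, minus strand), a matrix protein of vessel walls and fibroblasts, had the highest level of the 10 genes in every group. It was at 332, 295 and 353 in ctrl, 341, 308 and 340 in the Cre-labelled libraries, 260, 256 and 258 in Cre + NFIA and 375, 364 and 360 in the mutant at day 0, so that full-length NFIA lay below all others (-0.35 against Cre, SE 0.06, limma adjusted p = 0.00218). At day 7 it was at 197, 205 and 185 in ctrl and 135, 136 and 152 FPKM in Cre + NFIA, against 333, 336 and 348 in the Cre-labelled libraries and 344, 417 and 381 in the mutant. The fall between days was -0.73 in ctrl (limma adjusted p = 6.63e-09) and -0.88 in Cre + NFIA (limma adjusted p = 3.84e-10), while the Cre-labelled libraries and the mutant moved by 0.04 (95% interval -0.10 to 0.19) and 0.05 (95% interval -0.09 to 0.20).

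At day 7 Igf1r, Igf2r, Igfbp2, Igfbp3, Igfbp6 and Igfbp7 were thus all higher in the Cre-labelled libraries and with the mutant than in ctrl and Cre + NFIA. The precursor marker sum was also higher in the first pair of groups than in the second, and mural markers summed to 147 to 178 in ctrl, 195 to 241 in the Cre-labelled libraries, 85.9 to 102 in Cre + NFIA and 246 to 298 in the mutant. The mural markers were divided, however. Of the 5 tested, 2 were higher (36.1% of all genes) and 2 lower (22.7%) in Cre against ctrl. In Cre + NFIA against Cre 2 were higher (27.0%) and 3 lower (35.9%), and with the mutant against full-length NFIA 3 were higher (40.4%) and 2 lower (28.9%). The part of these markers in these results was not tested, and in bulk RNA fewer cells of a type and less RNA per cell cannot be told apart. Igf1, Igf2, Igfbp4 and Igfbp5 did not divide the groups that way. At day 0, before the adipocyte markers had risen, the precursor sum was 3307 to 3511 FPKM in the 6 libraries without a transgene and 3069 to 3194 FPKM in the 6 with one, and mural markers summed to 112 to 156 FPKM without a transgene and 76.2 to 87.2 FPKM with one. In Cre + NFIA against Cre, 4 of the 9 precursor markers tested were higher (14.7% of all genes) and 2 lower (12.9%). With the mutant against Cre, 1 was higher (9.26%) and 2 lower (9.02%). Of the 5 mural markers tested, 1 was higher and 2 lower with full-length NFIA, and 0 and 2 with the mutant. The sums thus do not speak for every marker, and the part of these markers in the day 0 differences with NFIA was not tested.

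Summed over the 6 genes, binding protein transcripts came to 425 to 522 in ctrl at day 0 and 313 to 351 FPKM at day 7, and to 280 to 309 FPKM in Cre + NFIA at day 7, against 532 to 562 in the Cre-labelled libraries and 611 to 722 with the mutant. Igfbp7 made up 46.9% to 72.4% of the sum per library. In Cre + NFIA the share of Igfbp4 went from 7.66% ± 0.71 at day 0 to 28.2% ± 0.91 at day 7 and that of Igfbp6 from 33.5% ± 2.25 to 19.2% ± 0.54 (SD, n = 3). With the mutant the same shares went from 3.76% ± 0.22 to 7.49% ± 0.34 and from 27.8% ± 0.27 to 25.9% ± 3.47. Igfbp5 was at most 1.93% of the sum in any library.

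**Figure D4:**
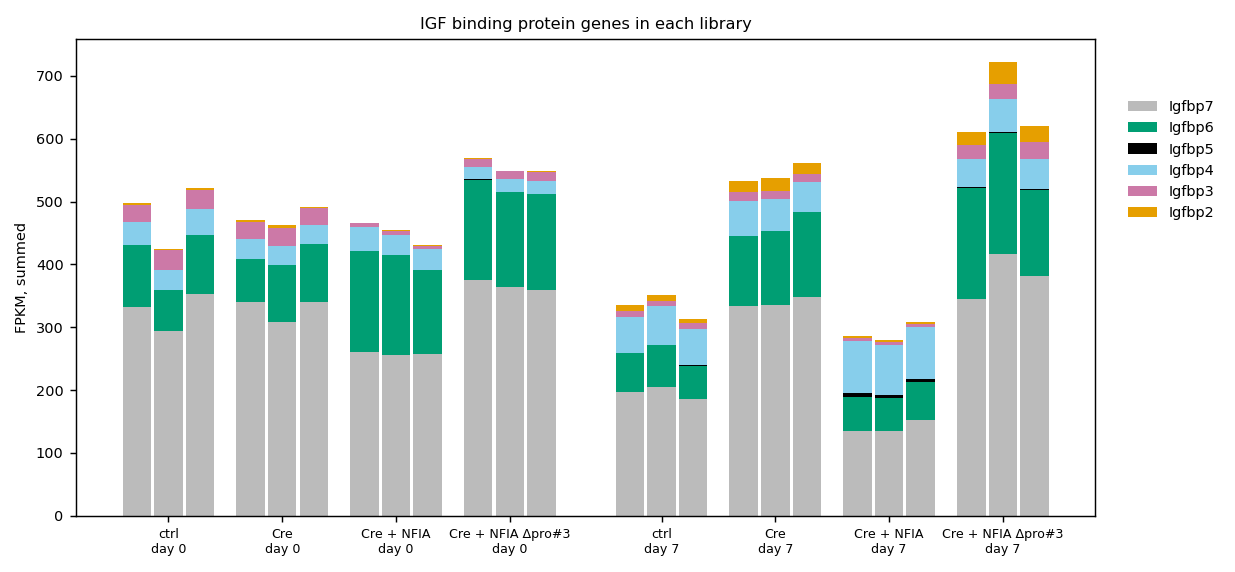
FPKM of the 6 IGF binding protein genes stacked for each library, 3 libraries per group, with the colours naming the genes. The bars of ctrl and Cre + NFIA are shorter at day 7 (280 to 351 FPKM) than those of Cre and the mutant (532 to 722 FPKM), and the share of Igfbp4 is wider in Cre + NFIA at day 7 than in any other group, though Igfbp7 takes the widest share of every bar.

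Promoter windows of 300 bases, 250 before and 50 after the annotated start, were taken from RefSeq on GRCm38.p6, a later build than the mm9 of the expression values, and all 10 genes had at least 1. They were searched on both strands for TTGGC, the 5-base core of the nuclear factor I recognition sequence. It was in 46.7% of all 32851 windows and in 2 of the 14 windows of these genes, those of Igfbp5 and Igfbp7, where it begins 125 and 21 bases before the start. The paired form, that core followed after 5 bases by its reverse complement GCCAA, was in 12 of all windows and in 0 of these. The windows of those 2 genes are shown with the match in capitals, followed by those of Igfbp3 and of Igf2 (1 of its 4 windows), the genes of the 10 with the largest log2 deficit with full-length NFIA at day 0, whose windows hold no match. A match describes letters alone, and its absence in such a short window says nothing of binding elsewhere.
Igfbp5, chr1:72874816-72875115, minus strand: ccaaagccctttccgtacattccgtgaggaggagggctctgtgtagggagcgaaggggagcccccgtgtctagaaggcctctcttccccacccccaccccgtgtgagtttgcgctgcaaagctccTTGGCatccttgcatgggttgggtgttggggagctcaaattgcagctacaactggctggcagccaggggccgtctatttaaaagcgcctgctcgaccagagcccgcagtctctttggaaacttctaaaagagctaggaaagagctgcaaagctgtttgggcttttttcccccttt
Igfbp7, chr5:77407996-77408295, minus strand: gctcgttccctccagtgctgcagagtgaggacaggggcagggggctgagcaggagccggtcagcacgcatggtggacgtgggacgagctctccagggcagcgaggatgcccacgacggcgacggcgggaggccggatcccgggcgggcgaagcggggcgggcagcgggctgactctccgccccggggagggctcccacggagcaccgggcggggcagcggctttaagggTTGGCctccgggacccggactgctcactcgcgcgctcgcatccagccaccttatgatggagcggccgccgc
Igfbp3, chr11:7213874-7214173, minus strand: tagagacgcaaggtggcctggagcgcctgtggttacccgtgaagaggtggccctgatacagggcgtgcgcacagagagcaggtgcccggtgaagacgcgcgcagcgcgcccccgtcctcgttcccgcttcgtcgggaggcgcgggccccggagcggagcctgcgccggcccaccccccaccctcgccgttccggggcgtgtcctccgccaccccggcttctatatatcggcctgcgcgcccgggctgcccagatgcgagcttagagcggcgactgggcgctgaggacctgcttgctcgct
Igf2, chr7:142657447-142657746, minus strand: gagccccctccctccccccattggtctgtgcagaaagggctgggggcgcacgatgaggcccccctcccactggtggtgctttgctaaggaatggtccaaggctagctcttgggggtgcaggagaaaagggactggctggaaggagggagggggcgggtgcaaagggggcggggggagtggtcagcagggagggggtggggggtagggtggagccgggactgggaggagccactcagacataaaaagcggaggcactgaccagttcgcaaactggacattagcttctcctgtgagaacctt

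The Δpro#3 mutant and full-length NFIA were also compared directly. Their Nfia levels differed on both days, in opposite directions, so the deletion and the transgene level were not separated here. At day 0, 2 of the 10 genes were higher with the mutant, Igfbp3 and Igfbp7 (0.50, limma adjusted p = 0.000439), and 2 were lower, Igfbp4 (-0.69, limma adjusted p = 0.000591) and Igf2r (-0.16, limma adjusted p = 0.0455). The Igf2r call was lost with median-of-ratios size factors (0.0653), a mean of at least 5 FPKM (0.0800) and all 24 libraries fitted (0.0936). It was also lost when any library of the 2 groups but Cre + NFIA replicate 3 was left out (0.102 to 0.164). Of all genes, 4.50% were higher and 5.59% lower. Igfbp2, higher with the mutant, and Igf1, lower, did not pass, though their ranges did not overlap. Igfbp2 passed with a pseudocount of 0.1 (limma adjusted p = 0.0185), a mean of at least 5 FPKM (0.0396) and quantile normalization (0.0478). It also passed with only the 2 groups fitted (0.0107) and with all 24 libraries (0.0491). Igf1 passed with a pseudocount of 0.1 (0.0330), only the 2 groups fitted (0.0188) and limma voom (0.0253). At day 7 all 10 passed, 7 higher (40.4% of all genes) and 3 lower (28.9%) with the mutant. At least 3-fold on the log2(FPKM + 1) scale were 0 of the 10 at day 0 (0.190% of all genes) and Igfbp2 and Igfbp3 at day 7 (6.92%). By ratio of mean FPKM, which is larger for low genes, the widest differences were 6.92-fold for Igfbp2 (2.49, SE 0.17, limma adjusted p = 8.66e-08), 5.25-fold for Igfbp3 (2.16, SE 0.09, limma adjusted p = 3.39e-09) and 3.71-fold for Igf1r (1.53, SE 0.11, limma adjusted p = 1.83e-07). The 3 lower genes were Igf1, Igfbp4 and Igfbp5.

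Between day 0 and day 7 the cell types differed in how many of the 10 genes moved and which way. The days also differ in medium and in time, and the part of each in these changes was not tested. In ctrl 5 rose (32.9% of all genes) and 5 fell (38.1%), in Cre + NFIA 5 rose (31.8%) and 5 fell (38.3%), in the Cre-labelled libraries 6 rose (30.0%) and 2 fell (21.6%), and with the mutant 7 rose (24.5%) and 0 fell (17.0%). At least 3-fold changes on the log2(FPKM + 1) scale, where low genes change less than by ratio of means, were called for Igf1 and Igfbp3 in ctrl (8.50% of all genes), Igf1 and Igfbp2 in the Cre-labelled libraries (2.73%) and in the mutant (1.46%), and Igf1, Igfbp2 and Igfbp5 in Cre + NFIA (9.08%). Igf1, Igf2, Igfbp2 and Igfbp4 rose past the test in all 4 cell types. The rise of Igf2 in the Cre-labelled libraries (0.26, limma adjusted p = 0.0472) was lost under 5 alternatives and when any of these libraries but Cre replicate 2 of day 7 was left out (0.0603 to 0.272), and its rise in Cre + NFIA (0.31, limma adjusted p = 0.0117) was lost with a pseudocount of 5 (0.109) and under quantile normalization (0.0866), and without Cre + NFIA day 0 replicate 2 (0.0514), day 7 replicate 1 (0.0505) or day 7 replicate 3 (0.0527). Igfbp3 fell in ctrl (-1.66), the Cre-labelled libraries (-1.0) and Cre + NFIA (-0.28) and rose with the mutant (0.89). Igf1 and Igfbp5 passed the low-value filter mostly through day 7 libraries, so their rise is a description. The difference between cell types itself changed from day 0 to day 7, by the limma interaction, upward for 6 (29.7% of all genes) and downward for 0 (19.5%) in Cre against ctrl, upward for 3 (18.8%) and downward for 5 (30.1%) in Cre + NFIA against Cre, and upward for 7 (7.79%) and downward for 0 (10.4%) in the mutant against Cre. At least 3-fold changes of this kind on the log2(FPKM + 1) scale were 0 of the 10 (1.53% of all genes), Igfbp5 and Igfbp6 (2.86%), and Igfbp3 (0.767%).

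Around the 10 genes, 39 other genes of the pathway were listed as IGF and insulin family genes, binding protein proteases and their inhibitors, receptor substrates and kinases, the growth hormone axis and the Igf2 locus, and 31 of them were tested. In Cre + NFIA against Cre 8 of the 31 were higher (14.7% of all genes) and 2 lower (12.9%) at day 0, and 14 were higher (27.0%) and 10 lower (35.9%) at day 7. With the mutant against Cre 6 were higher (9.26%) and 5 lower (9.02%) at day 0, and 6 higher (7.70%) and 8 lower (10.0%) at day 7. Cre against ctrl had 1 higher (1.63%) and 2 lower (1.70%) at day 0 and 12 higher (36.1%) and 12 lower (22.7%) at day 7. Of the 15 receptor substrates and kinases, 8 were higher and 4 lower in Cre + NFIA against Cre at day 7, beside the same 27.0% and 35.9% of all genes.

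Insr and Igf1r had opposite extremes at day 7. Insr, the insulin receptor, averaged 18.5 in ctrl and 20.3 FPKM in Cre + NFIA, against 12.1 FPKM in the Cre-labelled libraries and 8.15 FPKM in the mutant, while Igf1r was lowest in Cre + NFIA and highest on average in the mutant. Irs2, an adaptor of both receptors, was higher in Cre + NFIA than Cre (1.37, limma adjusted p = 3.75e-06), as was the kinase gene Akt2 (1.14, limma adjusted p = 4.96e-07), and both were lower in the Cre-labelled libraries than in ctrl (-1.06, limma adjusted p = 4.28e-05, and -1.02, limma adjusted p = 2.59e-06). Akt1, the gene of a related kinase, had the other order, averaging 90.8 FPKM in the Cre-labelled libraries and 102 FPKM in the mutant against 59.7 FPKM in ctrl and 54.4 FPKM in Cre + NFIA (0.60 for Cre against ctrl, limma adjusted p = 1.02e-05, and -0.73 for Cre + NFIA against Cre, limma adjusted p = 1.26e-06). Jak2, the kinase of the growth hormone receptor, and Foxo3, a transcription factor that AKT restrains, were also higher in the Cre-labelled libraries than in ctrl (0.75, limma adjusted p = 2.87e-05, and 0.74, limma adjusted p = 2.27e-06). Stat5a, a transcription factor downstream of growth hormone, was higher in Cre + NFIA than Cre at day 7 (1.0, limma adjusted p = 4.94e-07). Htra1, a protease that cuts IGF binding proteins, was lower in Cre + NFIA than Cre at day 7 (-1.14, limma adjusted p = 7.8e-07). Stc1, an inhibitor of PAPP-A, was higher with full-length NFIA at day 0 (1.62, limma adjusted p = 6.48e-07). Grb10, an imprinted adaptor that dampens both receptors, was lower in the Cre-labelled libraries than in ctrl at day 0 (-1.13, limma adjusted p = 0.000139) and higher with either transgene than in Cre (1.18 and 0.65, limma adjusted p = 5.84e-06 and 0.000802). Foxo1, a relative of Foxo3, and Grb14, an adaptor related to Grb10, were higher with full-length NFIA than in Cre at day 0 (0.77 each, limma adjusted p = 5.82e-05 and 0.00206). Both were lower with the mutant than with full-length NFIA, as was the adaptor gene Irs1 (-0.73, -0.74 and -0.67, limma adjusted p = 0.000199, 0.00601 and 0.000199). At day 0 the mutant was below Cre for the imprinted gene Plagl1 and the protease genes Adam12 and Pappa, the last encoding PAPP-A (-0.81, -0.59 and -0.56, limma adjusted p = 0.00343, 0.000146 and 0.000985), and Adam12 was also lower in the Cre-labelled libraries than in ctrl (-0.38, limma adjusted p = 0.0105). At day 7 the mutant was above Cre for Grb10 and Stc2, a relative of Stc1 (0.74 and 0.67, limma adjusted p = 0.0026 and 0.00155). It was below Cre for Irs2 and Ghr, the growth hormone receptor gene (-0.74 and -0.72, limma adjusted p = 0.00353 and 0.00437). Against full-length NFIA at day 7, 14 of the 31 were higher with the mutant (40.4% of all genes) and 13 lower (28.9%). The largest differences were Irs2, Akt2, Ghr and Stat5a, all lower (-2.10, -1.43, -1.41 and -1.36, limma adjusted p = 2.11e-06 or less). Between days Igf2bp2, the gene of an Igf2 mRNA binding protein, fell in Cre + NFIA (-1.59, limma adjusted p = 3.21e-15), and Socs2, an inhibitor of growth hormone signalling, had a more negative Cre + NFIA difference from Cre at day 7 than at day 0 (-1.18, limma adjusted p = 1.58e-06). Ghr, the growth hormone receptor, rose with Igf1 in all 4 cell types, by 2.43 in ctrl, 1.97 in the Cre-labelled libraries, 2.57 in Cre + NFIA and 1.40 in the mutant (limma adjusted p = 5.14e-08 or less).

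Of the genes near or opposite the members, H19, which neighbours Igf2 at a distance of 72.6 kb, had at most 6 reads in any library, the antisense gene Igf2os at most 2 and Igfbp1, 3.539 kb from Igfbp3, at most 1. Ins1 and Ins2 had 0 reads in every library, where 3 reads would be 0.205 to 0.388 reads per 1000000. Of the genes for proteins that bind Igf2 mRNA, Igf2bp1 was higher in the Cre-labelled libraries than in ctrl at day 0 (0.53, limma adjusted p = 0.00298). Its list, the Igf2 locus and Igf2 mRNA binding, had 4 genes tested. In Cre + NFIA against Cre at day 0, 1 of them was higher (14.7% of all genes) and 0 lower (12.9%). Igf2 itself was lower in that comparison.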

How the data were processed

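RNA-seq was made from 24 libraries of 4 cell types at 2 time points, 3 per group, grouped by their titles. The authors aligned the stranded mRNA reads to mm9 with STAR 2.5.3a, counted uniquely aligned reads on the matched strand per gene and deposited FPKM values. The annotation release is not given in the sources used here. FPKM multiplied by gene length gave whole reads for 100% of values (tolerance 0.01 reads), which gave the library totals of 7.73 to 14.62 M reads. Intervals and floors cover counting or model error only.

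Genes with at least 1 FPKM in at least 3 libraries (12640 of 24825) were tested on log2(FPKM + 1) with limma 3.58.1 in R 4.3.3 (moderated test with a mean-variance trend, two-sided, Benjamini-Hochberg adjustment over all genes tested, called at 0.05). Each day was fitted on its own 12 libraries, and contrasts that span the days were fitted on all 24. Fold values are ratios of mean FPKM, but the 3-fold limit was set on the log2(FPKM + 1) scale. The code was tested on simulated data. Tables and figures used Python 3.11.15, numpy 2.4.6, pandas 2.3.3, scipy 1.17.1 and matplotlib 3.10.9. Replicates of a group differed by more than sampling noise (chi-square per degree of freedom 2.17 to 15.1 over 24 pairs).

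The 10 genes, the pathway lists and the marker lists were chosen with earlier results of these data known. Named by rule were all 10 genes, Nfia, Pparg, Adipoq, Fabp4, in each comparison up to 4 pathway genes with the largest absolute log2 difference among those past the test, and for the 3 of the 10 genes with the widest range of group means the 3 genes with the highest Pearson r, of which 1 is not reported here. Akt1, Ins1, Ins2, Igfbp1, H19, Igf2os and Airn were named besides, after their values were seen. The alternatives were other pseudocounts (0.1 and 5), other filters, median-of-ratios and quantile scaling, a replicate block, other sets of libraries in the fit, limma voom on the recovered reads, a 3-fold rule and leaving out each library of the groups compared.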

Additional observations from a re-analysis of the deposited data

Results flagged for a closer look

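For 6 of the 10 genes the difference of the Cre-labelled libraries from ctrl changed between day 0 and day 7 by the limma interaction over all 24 libraries. The change, as the day 7 difference minus the day 0 difference in log2(FPKM + 1), was 0.81 for Igf1r, 1.09 for Igf2r, 1.03 for Igfbp2, 0.66 for Igfbp3, 1.01 for Igfbp6 and 0.78 for Igfbp7.

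For 8 of the 10 the difference of Cre + NFIA from Cre changed between the days. It moved by -0.98 for Igf1r, -0.88 for Igf2r, -0.78 for Igfbp2, -1.95 for Igfbp6 and -0.92 for Igfbp7, and by 0.72 for Igfbp3, 0.54 for Igfbp4 and 2.14 for Igfbp5. The value for Igfbp2 was lost with a pseudocount of 0.1 (-0.22, limma adjusted p = 0.582) and with limma voom on the recovered reads (-0.15, adjusted p = 0.851), both closer to a ratio scale. Igfbp3 was lower with full-length NFIA on both days, by more at day 0.

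For 7 of the 10 the difference of Cre + NFIA Δpro#3 from Cre changed between the days, each upward. It moved by 0.52 for Igf2, 0.49 for Igf1r, 0.40 for Igf2r, 1.18 for Igfbp2, 1.89 for Igfbp3, 0.48 for Igfbp4 and 0.86 for Igfbp5. The value for Igf2 was lost with a pseudocount of 5 (0.12, limma adjusted p = 0.351), when only the groups compared were fitted (0.0557), without mutant day 0 replicate 2 (0.0525) and without Cre day 7 replicate 2 (0.0600). The value for Igfbp5 was lost with limma voom (1.59, adjusted p = 0.208), where its day 0 libraries had 1 to 12 reads. Igfbp5 passed the low-value filter through the day 7 groups with a transgene alone, so its changes here and for full-length NFIA are descriptions.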

How the results depend on the processing

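Of 2465 log2 differences of the 10 genes recomputed under the alternatives, 2370 kept their side of the threshold, 78 lost the call, 17 gained it and 0 changed sign while called. With a 3-fold limit added, the calls among all genes were 3 for Cre against ctrl, 68 for Cre + NFIA against Cre, 18 for the mutant against Cre and 24 for the mutant against full-length at day 0, and 191, 459, 79 and 875 at day 7. They were 1075 in ctrl, 345 in Cre, 1148 in Cre + NFIA and 184 in the mutant between days, and 194, 361 and 97 for the changes of the first 3 comparisons between days. Of the 10 genes these were 0, 2, 1 and 0 at day 0, 0, 3, 0 and 2 at day 7, 2, 2, 3 and 2 between days, and 0, 2 and 1. With only the groups compared in the fit, Cre against ctrl at day 0 had 32 genes (421 as reported) and 0 of the 10, and the mutant against Cre at day 7 had 1226 (2238 as reported) and 3 of the 10. With all 24 libraries Cre against ctrl at day 0 had 636. With a pseudocount of 0.1 it had 0 of the 10. A mean of at least 5 FPKM, which drops Igf1, Igf2 and Igfbp5, gave 0 of the 10 there, 5 for the mutant against Cre at day 0 and 4 for the mutant between days.

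Leaving out each library of the groups compared in turn gave 175 to 453 genes for Cre against ctrl at day 0 (222 without ctrl replicate 2, 181 without Cre replicate 2, 175 without Cre replicate 3). It gave 1441 to 2011 for the mutant against Cre at day 0 (1441 and 1484 without mutant replicates 1 and 3), with 5 to 7 of the 10 (5 without mutant replicate 3), and 842 to 983 for the mutant against full-length at day 0 (842 and 845 without mutant replicates 1 and 3). It gave 1309 to 2502 for the mutant against Cre at day 7 (1424 and 1359 without Cre replicates 1 and 2, 1309 without mutant replicate 1), with 3 to 6 of the 10 (3 without Cre replicate 2). The cause was not tested, apart from the fewer genes or samples that these settings have by construction.

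With the replicate number as a block, limma lost Igf2r for the mutant against Cre (adjusted p = 0.0553) and against full-length at day 0 (0.0714) and Igfbp4 for Cre against ctrl at day 7 (0.0594), and changed no other call of the 10 genes. Same-numbered libraries deviated with correlations of -0.27 to 0.20. The sources used here do not say whether the numbers pair libraries, and these correlations cannot decide it, so the libraries were treated as unpaired.

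Median-of-ratios scaling moved the median of all genes by -0.11 for Cre against ctrl at day 7, by -0.10 for the mutant against full-length at day 7, and by -0.11 and 0.11 for the changes between days of Cre against ctrl and Cre + NFIA against Cre. The split of all genes into higher and lower then went from 4563 and 2867 to 3398 and 3948 for Cre against ctrl at day 7, from 3418 and 4540 to 4264 and 3677 for Cre + NFIA against Cre, from 3753 and 2471 to 2837 and 3289 and from 2378 and 3805 to 3158 and 2914 for those changes, and from 206 and 215 to 138 and 218 for Cre against ctrl at day 0. Quantile normalization took the last to 122 and 219, Cre between days from 3795 and 2736 to 2954 and 3689 and the mutant between days from 3101 and 2146 to 2459 and 2605, while no called difference of the 10 genes changed sign. With median-of-ratios scaling the larger direction also turned, by smaller moves, for the mutant against full-length at day 7 (5101 and 3649 to 4170 and 4429), ctrl between days (4157 and 4812 to 4686 and 4321) and Cre + NFIA between days (4017 and 4847 to 4509 and 4315). Low counts limit Igfbp5 at day 0, Igfbp2 in Cre + NFIA at day 0 and Igf1 in the mutant at day 0.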

Other observations

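Among all genes tested, the pattern of Igfbp2 over the 24 libraries was most like that of Rerg (Pearson r = 0.975 on log2(FPKM + 1)) and Nkd1 (0.958). Rerg averaged 3.42 FPKM in ctrl, 8.55 in the Cre-labelled libraries, 2.10 in Cre + NFIA and 9.22 in Cre + NFIA Δpro#3 at day 7. Igf1 was most like Mid2 (0.984), Col4a1 (0.982) and Atp6v0a1 (0.982), which rose between the days as Igf1 did, Mid2 from 0.918 to 4.23 FPKM in ctrl. Igfbp3 was most like Plxnb1 (0.943), Runx1t1 (0.931) and Atxn1 (0.926). These values describe libraries that share their groups and their days, so genes that follow either will correlate.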
